A study of Mus musculus with 12 samples.

Results

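The genes described are the nuclear genes for the 5 enzyme complexes of oxidative phosphorylation in mouse embryonic stem cells (mESCs), followed through 4 days of retinoic acid. They were chosen by symbol alone: every Ndufa, Ndufb, Ndufc, Ndufs and Ndufv gene with a number, Sdha to Sdhd, every Uqcr gene, the Cox4 to Cox8 subunit genes and every Atp5 gene. The rule took 84 of the 24495 genes in the count table, and 80 of these were among the 15532 genes with enough counts to test. By symbol, 36 of the 80 were placed in complex I, 4 in complex II, 8 in complex III, 15 in complex IV and 17 in ATP synthase.

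The cells were CCE-Nanog-GFP mESCs, a line with a GFP reporter for the pluripotency factor Nanog, which was sorted for GFP before use. Cells of the control line (shSC) carried a scrambled short hairpin RNA and cells of the knockdown line (shCTSL) carried one against Ctsl, the gene for the protease cathepsin L, both delivered by lentivirus. Each line was sampled as undifferentiated mESCs in LIF (Day 0) and as embryoid bodies after 2 or 4 days without LIF in 10 µM all-trans retinoic acid (Day 2 and Day 4), so every Day 2 and Day 4 library had lost LIF and gained retinoic acid together. Polyadenylated RNA was sequenced in 2 replicates of each of the 6 groups, 12 libraries in all. The study's figure legends call the RNA-seq replicates biological. No source used here says that they came from separate cultures, so p-values measure the spread between these libraries only.

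Oxidative phosphorylation takes place in the inner mitochondrial membrane. Complexes I and II pass electrons from NADH and succinate to ubiquinone, complex III passes them to cytochrome c, complex IV passes them to oxygen, and ATP synthase uses the proton gradient so formed to make ATP. All subunits of complex II and most subunits of the other complexes are encoded in the nucleus, and the rest in mitochondrial DNA. Alignments to mitochondrial DNA had been removed before the counts were made, so only the nuclear part is described. Mouse embryonic stem cells use glycolysis and respiration side by side, and several subunits have a second isoform that is known from muscle, testis or low oxygen.

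Nuclear respiratory factor 1 (NRF1), the ETS factor GABP and YY1 are known regulators of these genes, and the letters of their motifs were searched for in promoter windows from RefSeq (assembly GRCm38.p6, 250 bases before to 50 bases after each start). A window was at hand for 66 of the 84 genes. On both strands, the core of the NRF1 motif, CGCATGCG, which reads the same on either strand, was in 9 of the 66 (13.6%), against 3.97% of the 11778 tested genes with a window and 2.07% of all 27025 genes with one. The YY1 motif AAGATGGCG was in 7 (10.6%), against 3.12% of tested genes and 1.64% of all genes. The ETS motif CCGGAAGT was in 5 (7.58%), against 7.90% of tested genes and 4.31% of all genes. None of the 3 motifs contains another, and 19 of the 66 genes (28.8%) had at least 1 of them, against 14.1% of tested genes and 7.58% of all genes. The median GC content of the windows was 57.2% for the members and 60.7% for the tested genes.

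The following 100 bases before the start are shown for 5 of the members in which the NRF1 or ETS letters lay close upstream of the start, and for Cox6b2 and Cox7a1, a pair of restricted isoform genes with changes over time that passed the test and in whose windows none of the 3 motifs was found. Capitals mark motif letters that lie wholly within the 100 bases shown. The full window of Uqcr11 also held the NRF1 letters, which do not lie wholly within the stretch shown. In Atp5g2, Atp5k and Ndufa11 the NRF1 letters began 41, 49 and 59 bases before the start, and in Atp5h and Uqcr11 the ETS letters began 39 and 66 bases before it.
Atp5g2, chr15:102671048-102671147, minus strand: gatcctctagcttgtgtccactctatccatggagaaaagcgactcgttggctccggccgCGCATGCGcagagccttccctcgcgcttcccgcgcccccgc
Atp5k, chr5:108434400-108434499, minus strand: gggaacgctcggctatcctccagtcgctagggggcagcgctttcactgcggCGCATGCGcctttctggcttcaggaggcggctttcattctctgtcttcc
Ndufa11, chr17:56717662-56717761, plus strand: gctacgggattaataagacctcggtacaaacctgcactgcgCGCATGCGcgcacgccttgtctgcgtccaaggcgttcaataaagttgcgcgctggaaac
Atp5h, chr11:115419920-115420019, minus strand: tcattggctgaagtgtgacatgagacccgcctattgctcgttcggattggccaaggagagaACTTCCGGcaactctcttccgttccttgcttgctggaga
Uqcr11, chr10:80406822-80406921, minus strand: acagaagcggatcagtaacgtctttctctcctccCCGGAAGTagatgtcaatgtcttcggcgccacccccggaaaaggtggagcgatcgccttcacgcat
Cox6b2, chr7:4753095-4753194, minus strand: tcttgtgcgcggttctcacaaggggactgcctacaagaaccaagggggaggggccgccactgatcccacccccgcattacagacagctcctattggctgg
Cox7a1, chr7:30184071-30184170, plus strand: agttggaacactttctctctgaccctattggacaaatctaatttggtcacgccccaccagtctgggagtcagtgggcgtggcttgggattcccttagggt

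Libraries held 11171111 to 27155553 counts, and the 84 genes took 0.869% to 1.71% of them. Levels are given as CPM, counts set relative to the size of each library, with library sizes scaled by the trimmed mean of M-values (TMM), and a gene was called higher or lower when edgeR's quasi-likelihood test gave a Benjamini-Hochberg adjusted p under 0.05 over all 15532 genes and the change was at least 1.5-fold. Ctsl, the targeted gene, stood at 137 and 147 CPM in shSC and 39.2 and 37.5 in shCTSL at Day 0. It stood at 369 and 391 against 211 and 155 at Day 2, and at 484 and 423 against 257 and 253 at Day 4. The line difference of Ctsl was called at Day 0 (log2 fold change −1.89 ± 0.15 SE, adjusted p = 0.00246) and Day 2 (−1.06 ± 0.14, adjusted p = 0.0342) and was not called at Day 4 (−0.83 ± 0.14, adjusted p = 0.0896), where the libraries did not overlap. The pluripotency markers Nanog, Pou5f1, Sox2, Zfp42, Esrrb, Klf4 and Tdgf1 were all lower at Day 4 in both lines, their summed level going from 5631 to 5812 CPM at Day 0 to 292 to 337 CPM at Day 4 in shSC. All 6 retinoic acid response markers and all 5 endoderm markers were higher at Day 4 in both lines. In these bulk samples, fewer cells of a type and less RNA per cell cannot be told apart, and the part of a changing cell mixture in the values below was not tested.

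The pair of shCTSL Day 2 libraries stood apart for these genes. Replicate 1 gave the highest value of all 12 libraries for 51 of the 80 tested members and stood above both shSC Day 2 libraries for 77, while replicate 2 stood below both for 50. The median log2 ratio of replicate 1 to replicate 2 was 1.07 over the members, with 78 of 80 higher in replicate 1, against 0.00010 over all genes and 0.47 over 4370 other genes of like exonic length. The ribosomal RNA gene Rn45s took 3.43% of counts in replicate 1 and 0.170% to 1.43% in the other libraries. Medians that use Day 2 of shCTSL, and values of members named there, are therefore given also by replicate or with libraries left out.

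**Figure D1:**
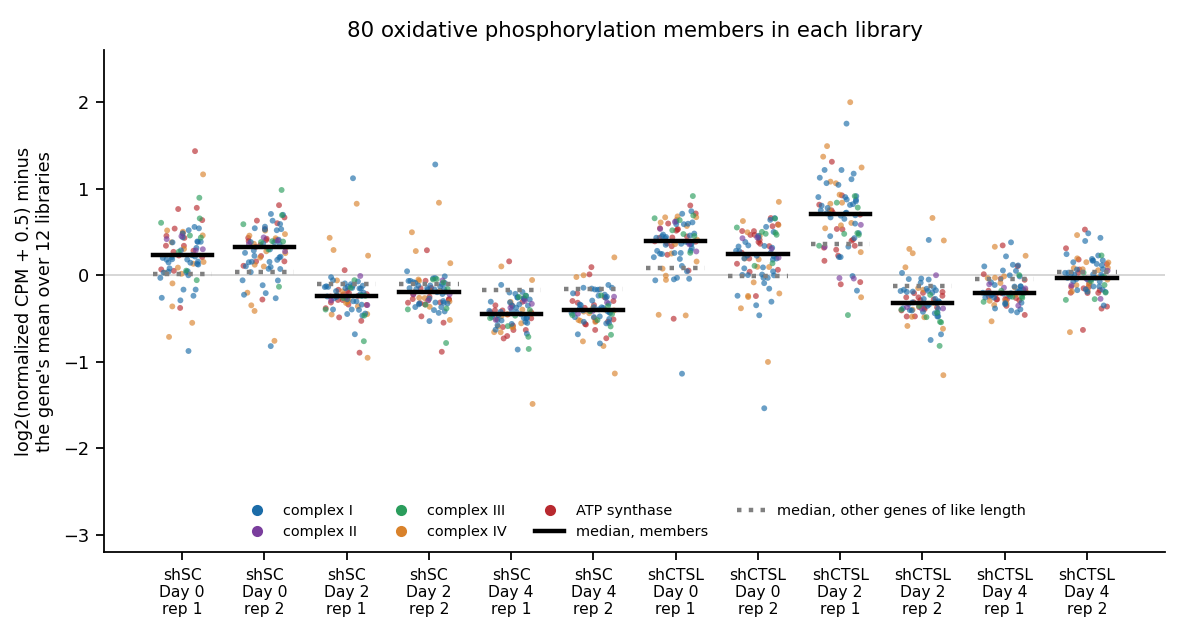
Each point is 1 of the 80 tested members in 1 of the 12 libraries, coloured by complex, and the vertical axis is log2(normalized CPM + 0.5) minus the gene's mean over all libraries. Black bars are medians of the members and dotted grey bars are medians of other genes of like exonic length; the shCTSL Day 2 replicate 1 column stands above its partner, and the Day 4 columns of shSC stand lowest.

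Per kilobase of exon, the members spanned a wide range of levels, as means over the 12 libraries. The median was 90.9 CPM per kilobase in complex I, 97.9 in complex II, 156 in complex III, 136 in complex IV and 168 in ATP synthase. Cox4i1, the common isoform of the subunit 4 of complex IV, was highest of all at 1167 CPM per kilobase, followed by Atp5b and Atp5a1, the catalytic beta and alpha subunits of ATP synthase, at 1010 and 522. In complex I the highest were Ndufa4 at 348 and Ndufa7 at 251; Ndufa4 was first described as a complex I protein and is now placed with complex IV. In complex III they were Uqcrh at 247, the hinge protein beside cytochrome c1, and Uqcrq at 230, a small subunit. Sdha, the flavoprotein that oxidises succinate, stood at 126 and Sdhb, its iron-sulfur partner, at 107.

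The first question was how these genes behaved as control cells left the undifferentiated state. At Day 4 in shSC, 45 of the 80 members were lower than at Day 0 and none was higher, where 28.7% of all tested genes were lower and 32.1% higher. The summed level of the 84 genes was 14837 ± 310 CPM at Day 0, 9752 ± 11.3 at Day 2 and 8474 ± 98.2 at Day 4 (mean ± SD, n = 2 each), which left 65.7% and 57.1% of the Day 0 level. The median log2 fold change at Day 4 was −0.70 over the members, against 0.03 over all tested genes, −0.20 over the 4370 genes of like exonic length and −0.41 over the 2372 of these that were also in the members' range of levels. Both Day 4 libraries were below both Day 0 libraries for 70 members and above them for 4, where 44.2% and 45.6% of all genes separated in those directions. These are short transcripts, with a median exonic length of 748 bases against 2625.5 in other tested genes, and within the members the Day 4 fold change had little relation to length (Spearman rho 0.03 over 80 genes that share libraries, given as a description). With exonic length as an offset in the fit, 30 members were called in place of 45, of which 28 were lower and 2 higher, 28 of the calls were shared, and the median was −0.50.

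The size of this change rested on the scaling. TMM factors were 0.83 to 0.86 in the Day 0 libraries and 1.03 to 1.11 in the later ones. With library totals and no TMM factors, all tested genes had a median log2 fold change of 0.35 at Day 4 in shSC and the members one of −0.37, and the call became 2 members higher and 17 lower. Genes of like length had a median of 0.12 and those of like length and level −0.08. For changes over time, shares of all genes called with library totals or length offsets are not given here. Counts of members under those settings are therefore not read as results about the members. As a plain share of counts, the 84 genes took 1.24% and 1.26% in the Day 0 libraries of shSC, 1.08% and 1.07% at Day 2, and 0.869% and 0.917% at Day 4. The member medians of all 5 complexes were below 0 at Day 4 in shSC on either scale.

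In complex I, which takes electrons from NADH, 15 of 36 members fell by Day 4 in shSC: 4 of the 7 core subunits, which bind the flavin and iron-sulfur clusters or line the ubiquinone site, and 11 of the 29 accessory ones. Complexes were counted by symbol, so the 29 include Ndufa4, now placed with complex IV, and its paralog Ndufa4l2. The median was −0.65. Ndufs1, the largest core subunit, stood at 263 and 261 CPM at Day 0, 157 and 158 at Day 2 and 142 and 133 at Day 4. Its Day 4 fold change was −0.93 ± 0.09 (log2, SE, adjusted p = 8.79e-06), with most of the fall made by Day 2 on the TMM scale. Ndufs6, an accessory subunit that carries zinc, had the lowest fold change in the complex. It stood at 76.3 and 87.0 CPM at Day 0, 43.0 and 42.5 at Day 2 and 29.0 and 30.5 at Day 4, and its fold change was −1.46 ± 0.32 (adjusted p = 0.00208). Ndufa5, an accessory subunit of the peripheral arm, fell by 1.12 ± 0.31 (adjusted p = 0.00908). Ndufa4 fell by 0.68 ± 0.27 (adjusted p = 0.047), while Ndufa7 at −0.66 ± 0.27 missed the threshold (adjusted p = 0.0508).

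Complex II, which oxidises succinate and also belongs to the citric acid cycle, has 4 subunits, and 3 of them fell. Sdha stood at 439 and 475 CPM at Day 0, 358 and 345 at Day 2 and 293 and 289 at Day 4 in shSC, an ordered series without overlap, and changed by −0.65 ± 0.09 (adjusted p = 0.000104). The membrane anchors Sdhc and Sdhd, which hold the complex in the inner membrane, changed by −0.87 ± 0.18 (adjusted p = 0.00165) and −0.84 ± 0.13 (adjusted p = 0.000192). Sdhb stood at 147 and 144 CPM at Day 0 and at 94.7 and 100.3 at Day 4. The groups did not overlap, but its change of −0.58 ± 0.24 did not pass (adjusted p = 0.0528).

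In complex III, 7 of 8 members fell and the median was −0.84, lowest of the 5 complexes. Uqcrq stood at 154 and 164 CPM at Day 0, 48.4 and 47.7 at Day 2 and 50.1 and 54.5 at Day 4, so that its fall was complete by Day 2. Its Day 4 change was −1.60 ± 0.32 (adjusted p = 0.00127). Uqcr10, another small subunit, stood at 123 and 126 CPM at Day 0, 56.2 and 59.5 at Day 2 and 42.9 and 48.1 at Day 4, and changed by −1.45 ± 0.32 (adjusted p = 0.00232). The core proteins Uqcrc1 and Uqcrc2, which face the matrix, fell by 1.08 ± 0.19 (adjusted p = 0.000514) and 0.67 ± 0.10 (adjusted p = 0.000176). Uqcrh was the member that did not pass. It stood at 126 and 119 CPM at Day 0 and 111 and 102 at Day 4, a fold change of −0.20 ± 0.32 (adjusted p = 0.593).

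In complex IV, the cytochrome c oxidase, 7 of 15 tested members fell and the median was −0.75. Cox6b2, known as the testis isoform of subunit 6b, had the lowest fold change. It stood at 20.2 and 22.7 CPM at Day 0, 21.28 and 20.004 at Day 2 and 6.14 and 7.98 at Day 4, so it kept its level to Day 2 and fell afterwards. Its fold change was −1.61 ± 0.31 for Day 4 against Day 0 (adjusted p = 0.000877) and −1.56 ± 0.30 for Day 4 against Day 2 (adjusted p = 0.00336). Cox8a and Cox7b, small subunits of the membrane part, fell by 1.06 ± 0.22 (adjusted p = 0.00153) and 1.003 ± 0.28 (adjusted p = 0.0081). The most abundant member, Cox4i1, went from 808 and 875 CPM to 555 and 561 without overlap, and its change of −0.59 ± 0.29 did not pass (adjusted p = 0.0969). Cox6a1 changed by −0.47 ± 0.22 (adjusted p = 0.0887).

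ATP synthase had 13 of its 17 symbols lower at Day 4 in shSC, with a median of −0.76. Atp5b of the catalytic head stood at 2843 and 2904 CPM at Day 0, 1572 and 1510 at Day 2 and 1294 and 1283 at Day 4. Its change was −1.16 ± 0.10 (adjusted p = 2.69e-06). Atp5a1 stood at 1750 and 1811 CPM at Day 0 and at 984 and 985 at Day 4, a change of −0.86 ± 0.10 (adjusted p = 2.08e-05). Of the 9 subunits of the head and its stalks, 6 fell, with a median of −0.69. The peripheral stalk subunits Atp5f1 and Atp5j had small changes that passed, at −0.66 ± 0.22 (adjusted p = 0.0224) and −0.63 ± 0.18 (adjusted p = 0.0103). The 6 genes of the proton-carrying c ring and the membrane part around it were all lower, with a median of −1.31.

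Atp5g1, Atp5g2 and Atp5g3 encode the same mature protein of the c ring, and Atp5g3 had the highest counts per kilobase of them. Atp5g3 stood at 429 and 426 CPM at Day 0 and at 205 and 220 at Day 4, and fell by 1.01 ± 0.23 (adjusted p = 0.00298). Atp5g1 went from 36.4 and 37.2 CPM to 13.4 and 14.4, a change of −1.41 ± 0.21 (adjusted p = 0.000154). Atp5g2 stood at 0.398 to 1.98 CPM in all 12 libraries and changed by −1.37 ± 0.48 (adjusted p = 0.0265). The call of Atp5g2 was lost without Day 0 replicate 1 of shSC (−1.09) and without Day 4 replicate 1 of shSC (−0.76). All of its 32-base windows also occurred elsewhere in the genome, as did 74.7% of those of Atp5g1, so reads of these genes could be lost when poorly placed alignments were removed, and their levels are uncertain.

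Atp5l, a subunit of the membrane part, had the lowest Day 4 fold change of all members, −1.79 ± 0.40 (adjusted p = 0.00271), from 7.01 and 3.72 CPM to 1.81 and 1.18, but 89.8% of its windows had a copy elsewhere. Atp5k, which joins ATP synthases into dimers, fell by 1.25 ± 0.30 (adjusted p = 0.00417). Atp5j2 fell by 0.98 ± 0.31 (adjusted p = 0.0166). Of all 26 members with at least 20% of windows copied, 16 fell, and of the 54 with fewer, 29 fell. The symbols Atp5s and Atp5sl are no subunits of the enzyme. Atp5s, known as coupling factor B, stood at 5.41 and 5.82 CPM at Day 0 and 8.09 and 7.70 at Day 4 and changed by 0.49 ± 0.21 (adjusted p = 0.0596), while Atp5sl, a complex I assembly protein, fell by 0.70 ± 0.17 (adjusted p = 0.00427).

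**Figure D2:**
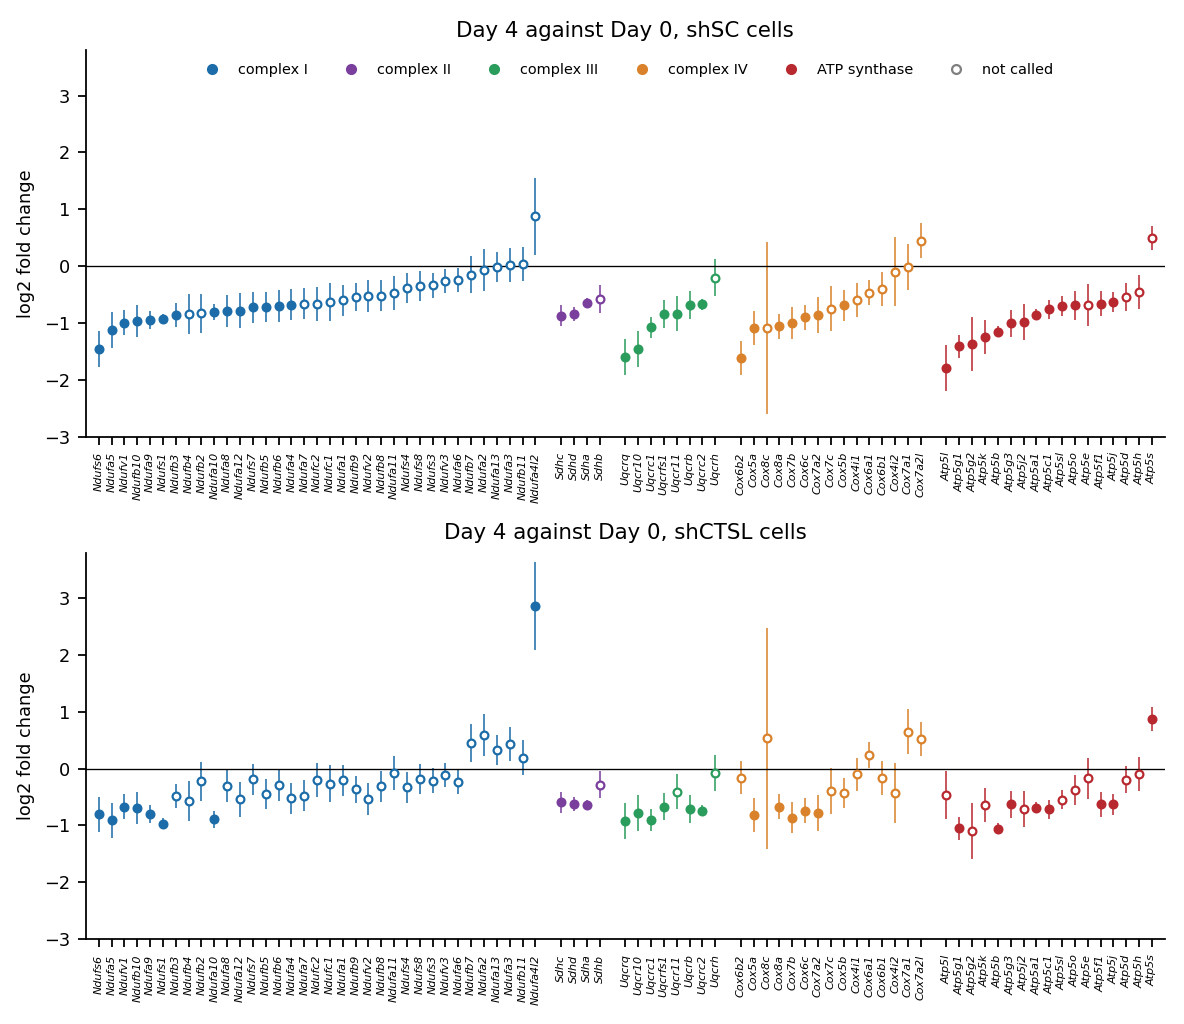
Points are log2 fold changes of Day 4 against Day 0 with bars of 1 standard error for the tested members, 1 left out, ordered by complex, in shSC (upper panel) and shCTSL (lower panel); filled points are called and open points are not. In shSC, 45 members are called lower and 0 higher; in shCTSL, 28 are called lower and 2 higher. With library totals in place of TMM these counts were 17 and 2, and 3 and 9, where the median over all tested genes was 0.35 and 0.44.

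How the change was split between the days turned with the scaling. The members' median was −0.52 from Day 0 to Day 2 and −0.17 from Day 2 to Day 4 with TMM, and −0.13 and −0.24 with library totals. At Day 2 in shSC, 31 members were lower and 2 higher than at Day 0, where 25.3% of all tested genes were lower and 29.3% higher. With library totals, where all genes had a median of 0.41, the count was 5 lower and 4 higher. The TMM median of −0.52 stood against −0.14 over genes of like length and −0.35 over those of like length and level. The members with the lowest values were Atp5l at −2.40 ± 0.41 (adjusted p = 0.000511), Uqcrq at −1.72 ± 0.32 (adjusted p = 0.000916), Cox7c at −1.65 ± 0.40 (adjusted p = 0.00468), Atp5g1 at −1.36 ± 0.20 (adjusted p = 0.000221) and Atp5g2 at −1.28 ± 0.44 (adjusted p = 0.0278). Of Cox7c, a small subunit of complex IV, 72.5% of windows had a copy elsewhere. The smallest falls that passed were those of Uqcrfs1, the Rieske iron-sulfur protein of complex III (−0.61 ± 0.24, adjusted p = 0.0474), Ndufb3 (−0.60 ± 0.21, adjusted p = 0.0281) and Atp5g3 (−0.60 ± 0.23, adjusted p = 0.0415). Between Day 2 and Day 4 only 3 members passed, all lower: Cox6b2, Cox7a1 and Ndufa4l2, where 12.4% of all genes were lower and 11.4% higher.

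Both members that were higher at Day 2 in shSC were isoforms known for restricted expression. Ndufa4l2, the hypoxia-responsive paralog of Ndufa4, stood at 0.457 and 0.496 CPM at Day 0, 3.32 and 3.76 at Day 2 and 0.972 and 0.763 at Day 4. Its fold change was 2.87 ± 0.55 at Day 2 (adjusted p = 0.00112) and −1.99 ± 0.47 from Day 2 to Day 4 (adjusted p = 0.00969), from 6 and 8 counts in the Day 0 libraries. Cox7a1, known as the heart and skeletal muscle isoform of subunit 7a, stood at 5.95 and 5.08 CPM at Day 0, 16.2 and 16.4 at Day 2 and 5.92 and 4.85 at Day 4. It rose by 1.57 ± 0.38 (adjusted p = 0.00472) and then fell by 1.59 ± 0.38 (adjusted p = 0.00987), and Day 4 differed from Day 0 by −0.02 ± 0.40 (adjusted p = 0.97). Heart and skeletal muscle markers summed to 7.001 to 7.32 CPM at Day 0, 6.22 to 6.51 at Day 2 and 2.21 to 2.57 at Day 4 in shSC. Of these 6 markers, Tnnt2, Myod1 and Ckm had too few counts to test in these cells. Most of the fall in the sum by Day 4 lay in Myh6, at means of 5.41 CPM at Day 0 and 0.675 at Day 4. Myh7 stood at means of 0.66 and 0.71 CPM at those days and Actc1 at 0.46 and 0.68, so the markers did not move together. The part of muscle cells in the level of Cox7a1 was not tested.

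In shCTSL the isoforms moved in the same order of days. Cox7a1 stood at 6.34 and 4.21 CPM at Day 0, 37.2 and 14.4 at Day 2 and 8.07 and 8.76 at Day 4. Its changes were 2.26 ± 0.39 to Day 2 (adjusted p = 0.000597) and −1.61 ± 0.36 to Day 4 (adjusted p = 0.00817). Without Day 2 replicate 1 of shCTSL they were 1.46 and −0.80 and without replicate 2 they were 2.78 and −2.15, and the calls of Cox7a1 were kept. Ndufa4l2 stood at 0.298 and 0.105 CPM at Day 0, 5.42 and 1.83 at Day 2 and 1.79 and 1.48 at Day 4, from 4 and 1 counts at Day 0. It was higher than at Day 0 both at Day 2 (3.97 ± 0.70, adjusted p = 0.000629) and at Day 4 (2.87 ± 0.77, adjusted p = 0.00772). The Day 2 change of Ndufa4l2 was 3.07 without replicate 1 of that day and 4.59 without replicate 2. Its change from Day 2 to Day 4 in shCTSL was not called, and Day 2 replicate 2, at 1.83 CPM, stood close to the Day 4 libraries. Cox4i2, the oxygen-regulated isoform of subunit 4, was lower at Day 4 than at Day 2 in shCTSL (−1.48 ± 0.45, adjusted p = 0.0318), from 4.62 and 1.75 CPM to 0.758 and 1.43. The change of Cox4i2 was −0.68 without Day 2 replicate 1, where the call was lost, and −2.06 without replicate 2. In shSC it stood at 0.610 and 0.929 CPM at Day 0, 1.73 and 1.71 at Day 2 and 0.707 and 0.763 at Day 4, and no change passed.

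As shares within a pair, which cancel the scaling of a library, Cox7a1 and Ndufa4l2 peaked at Day 2 in both lines. Per kilobase, Cox7a1 made up 8.22% and 7.23% of Cox7a1 and Cox7a2 together in the shSC Day 0 libraries, 26.98% and 25.7% at Day 2 and 14.3% and 11.6% at Day 4. In shCTSL the share was 6.85% and 5.41% at Day 0, 27.9% and 27.3% at Day 2 and 15.8% and 15.0% at Day 4. The Day 2 replicates of shCTSL, at 37.2 and 14.4 CPM of Cox7a1, thus gave close shares. Ndufa4l2 made up 0.123% and 0.128% of its pair with Ndufa4 at Day 0, 1.20% and 1.28% at Day 2 and 0.419% and 0.314% at Day 4 in shSC. The days did not overlap in either line for these pairs.

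Cox7a2l, which joins complexes III and IV in supercomplexes, gained share against Cox7a2 on each sampling day. It made up 12.1% and 11.9% of the pair at Day 0, 18.6% and 19.2% at Day 2 and 26.3% and 24.2% at Day 4 in shSC. In shCTSL it made up 11.97% and 11.9%, then 17.9% and 18.8%, then 25.7% and 24.7%. Cox7a2 was lower at Day 4 in shSC (−0.86 ± 0.32, adjusted p = 0.0327), while Cox7a2l itself changed by 0.45 ± 0.30 and did not pass (adjusted p = 0.215), and 70.4% of its windows had a copy elsewhere. Cox6b2 made up 10.96% and 11.5% of its pair with Cox6b1 at Day 0, 14.1% and 13.1% at Day 2 and 4.48% and 6.01% at Day 4 in shSC. In shCTSL its share was 10.4% and 8.24% at Day 0, 12.3% and 15.8% at Day 2 and 8.92% and 10.05% at Day 4, where Day 0 and Day 4 overlapped. The germ cell markers Ddx4, Dazl, Prdm1, Sycp3 and Tnp1 summed to 80.6 to 86.5 CPM at Day 0, 218 to 229 at Day 2 and 120 to 123 at Day 4 in shSC, with Tnp1 at 0 in all 6 libraries. These markers did not move together. As means at Day 0, Day 2 and Day 4 in shSC, Prdm1 stood at 21.7, 108 and 44.5 CPM and Ddx4 at 49.8, 73.0 and 36.8. Dazl stood at 4.12, 35.6 and 39.0 and Sycp3 at 7.83, 6.27 and 1.55. The part of germ cells in the level of Cox6b2 was not tested.

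**Figure D3:**
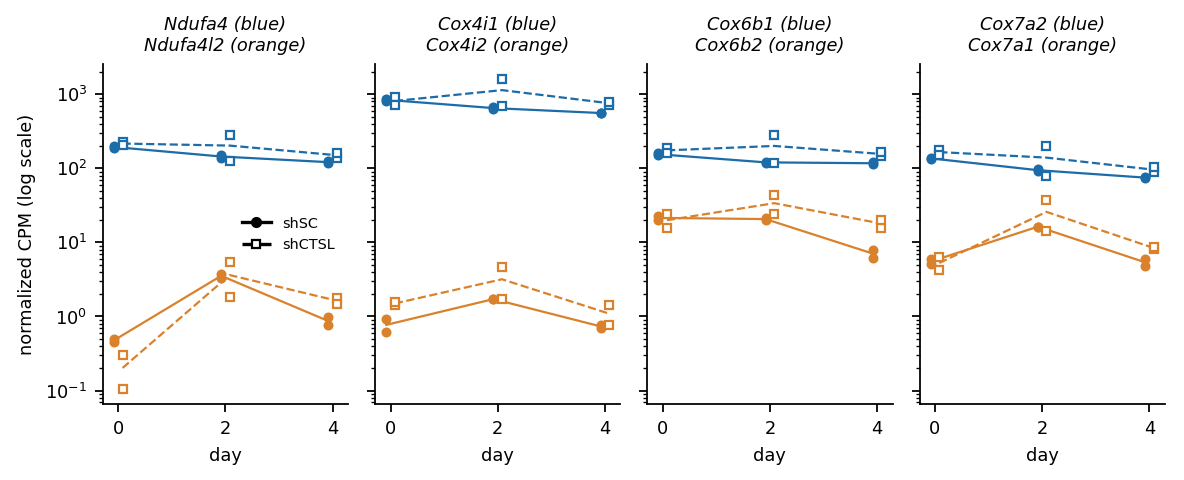
Normalized CPM on a log scale against day for each restricted isoform (orange) and its widely expressed partner (blue), with filled circles for shSC, open squares for shCTSL and lines through the 2-library means. The means of Cox7a1 and Ndufa4l2 are highest at Day 2 in both lines, and Cox6b2 at Day 4 is lower in shSC than in shCTSL. For Ndufa4l2 in shCTSL, Day 2 replicate 2 lies close to the Day 4 libraries.

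The second question was how the same genes behaved over time in the knockdown line. At Day 4 in shCTSL, 28 members were lower and 2 higher than at Day 0, where 27.6% of all genes were lower and 32.3% higher. The median was −0.44, against −0.05 over genes of like length and −0.30 over those of like length and level. The summed level was 15118 ± 1085 CPM at Day 0 and 10156 ± 727 at Day 4, or 67.2% of Day 0. With library totals and no TMM factors, all genes had a median of 0.44 and the members one of −0.07. Genes of like length had 0.33 and those of like length and level 0.08. The count of members became 3 lower and 9 higher, so its direction in this line turned with the scaling. As the median of all genes was above 0 on that scale, the count is not read as a result about the members. With 1 library left out at a time, the members' TMM median ran from −0.51 to −0.40.

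The lowest called members at Day 4 in shCTSL were Atp5b, Atp5g1, Ndufs1, Uqcrq and Ndufa5. Atp5b stood at 2998 and 2747 CPM at Day 0 and 1330 and 1422 at Day 4, a change of −1.06 ± 0.10 (adjusted p = 5.14e-06). Atp5g1 changed by −1.05 ± 0.21 (adjusted p = 0.00111) and Ndufs1 by −0.97 ± 0.09 (adjusted p = 6.82e-06). Uqcrq fell by 0.92 ± 0.32 (adjusted p = 0.0244), and Ndufa5 by 0.91 ± 0.31 (adjusted p = 0.0244). By complex, 7 of 36 members of complex I were lower and 1, Ndufa4l2, was higher. In complex II 3 of 4 were lower, in complex III 6 of 8 and in complex IV 5 of 15. The median of complex I was −0.31 with TMM and 0.06 with library totals, while the medians of the other 4 complexes were below 0 on both scales. In ATP synthase 7 of 17 were lower and Atp5s, no subunit, was higher (0.87 ± 0.21, adjusted p = 0.0045). The complex II subunits changed by −0.64 ± 0.09 (Sdha), −0.29 ± 0.24 (Sdhb, adjusted p = 0.308), −0.59 ± 0.18 (Sdhc) and −0.62 ± 0.13 (Sdhd) in shCTSL. Sdhc, Sdhd and the stalk subunit Atp5j (−0.63 ± 0.18, adjusted p = 0.0105) had the smallest falls that passed.

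Day 2 of shCTSL could not be read as 1 level. The summed level was 16184 CPM in replicate 1 and 9548 in replicate 2, a mean of 12866 ± 4693 (SD), against 15118 ± 1085 at Day 0. With both libraries 12 members were lower and 7 higher than at Day 0, where 24.6% of all genes were lower and 30.9% higher. The median was −0.09 with TMM and 0.24 with library totals, where all genes had one of 0.42 and 18 members were higher and 0 lower. Against Day 0 of shCTSL, the median log2 difference of the members was 0.35 in replicate 1 and −0.65 in replicate 2. Over genes of like length these were 0.31 and −0.12, and over all tested genes 0.08 and 0.05. With 1 library left out at a time, the members' median ran from −0.63 to 0.35. The median log2 ratio of replicate 1 to replicate 2 was 1.13 over the 26 members under 600 bases, 1.11 over the 33 of 600 to 1200 bases and 0.57 over the 21 longer ones. Among the longer ones, Sdha stood at 350 and 360 CPM in replicates 1 and 2, and Ndufa11, an accessory subunit of complex I, at 143.6 and 59.8. Among the others, Cox4i1 stood at 1588 and 686 CPM, Cox6a1 at 457 and 257, and Ndufb7, an accessory subunit of complex I, at 249.7 and 97.8.

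Among the members called at Day 2 in shCTSL, Cox7c at −1.32 ± 0.42 (adjusted p = 0.0192), Ndufs1 at −0.88 ± 0.09 (adjusted p = 1.76e-05), Ndufa10 at −0.83 ± 0.15 (adjusted p = 0.00066), Uqcrq at −0.82 ± 0.31 (adjusted p = 0.0417) and Uqcrc2 at −0.82 ± 0.10 (adjusted p = 5.47e-05) were lowest. Ndufa10 is an accessory subunit of complex I. After the isoforms Ndufa4l2 and Cox7a1, the highest were Cox6a1 at 0.88 ± 0.23 (adjusted p = 0.00633), Ndufa13 at 0.83 ± 0.27 (adjusted p = 0.0205) and Ndufb7 at 0.82 ± 0.33 (adjusted p = 0.0492). Without Day 2 replicate 1, Cox6a1 stood at 0.45, Ndufa13 at 0.21 and Ndufb7 at 0.030, and their calls were lost, while without replicate 2 they stood at 1.23, 1.28 and 1.34. Without Day 2 replicate 2, Uqcrq stood at −0.31 and Cox7c at −0.83, and their calls were lost, while without replicate 1 they stood at −1.58 and −1.84. Ndufs1, Ndufa10 and Uqcrc2 remained called without either library, between −1.02 and −0.63. From Day 2 to Day 4 in shCTSL, Cox6b2, Cox7a1 and Cox4i2 were lower, where 12.4% of all genes were lower and 11% higher. The members' median for that change was −0.34, and it ran from −0.81 to 0.22 with 1 library left out at a time. The change of Cox6b2 was −0.45 without Day 2 replicate 1, where its call was lost, and −1.28 without Day 2 replicate 2.

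The third question was whether the lines differed. No member was called at any day, with 0 higher and 0 lower at Day 0, Day 2 and Day 4 by edgeR, where 0%, 0.00644% and 0% of all tested genes were higher and 0.0386%, 0.0579% and 0.0129% lower. Without adjustment, p was under 0.05 for 0 members at Day 0, for 27 at Day 2, of which 26 were higher in shCTSL, and for 3 at Day 4, all higher in shCTSL. Of all tested genes, 7.26%, 19.4% and 12.2% had such a p at those days, and 2.63%, 11.6% and 6.16% were those higher in shCTSL. DESeq2 called 0 members at Day 0, 1 at Day 2 (Cox6a1) and 1 at Day 4 (Cox6b2). By that test 0.0773%, 0.296% and 0.476% of all tested genes were higher at those days and 0.232%, 0.509% and 0.373% lower. At Day 0 the median difference was 0.03 and the members with the smallest p were Atp5l (−0.79 ± 0.40, adjusted p = 0.732) and Uqcrb, a small subunit of complex III (0.39 ± 0.25, adjusted p = 0.828). At Day 2 they were Cox6a1 (0.88 ± 0.22, adjusted p = 0.214) and Atp5l (1.26 ± 0.43, adjusted p = 0.222). Without Day 2 replicate 1 of shCTSL these were 0.42 for Cox6a1 and 0.81 for Atp5l, and without replicate 2 they were 1.24 and 1.67. The Day 2 median of 0.50 came to −0.05 without replicate 1 of shCTSL.

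At Day 4 the difference was small and one-sided. Both shCTSL libraries were above both shSC libraries for 68 of the 80 members and below them for none, where 30% of all genes separated upwards and 31.5% downwards. Of the genes of like length, 2153 of 4370 (49.3%) separated upwards, and of those of like length and level, 1389 of 2372 (58.6%). The median difference was 0.35 over the members, 0.18 over genes of like length and 0.18 over those of like length and level. The summed level at Day 4 was 8474 ± 98.2 CPM in shSC and 10156 ± 727 in shCTSL. With library totals the median was 0.42, with all genes at 0.07, and 0 were called.

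Cox6b2 had the smallest p at Day 4. Its level was 6.14 and 7.98 CPM in shSC and 15.8 and 20.1 in shCTSL, a difference of 1.36 ± 0.30 (adjusted p = 0.199 by edgeR over all 15532 genes, with 12 libraries in the fit). DESeq2 gave Cox6b2 an adjusted p of 0.0042. Sdhd came next, at 85.2 and 82.9 CPM against 100.1 and 108 (0.31 ± 0.13, adjusted p = 0.387). In the fit without both shCTSL Day 2 libraries, 6 members were called higher in shCTSL at Day 4: Cox6b2, Cox7a1, Ndufa4l2, Ndufa2, Ndufb2 and Uqcr10. In that fit 2.94% of all tested genes were called higher and 2.95% lower. Ndufa2 and Ndufb2 are accessory subunits of complex I. The germ cell markers summed to 120 to 123 CPM in shSC and 118 to 120 in shCTSL at Day 4. As means, Ddx4 and Sycp3 were higher in shCTSL and Dazl and Prdm1 lower. The heart and skeletal muscle markers summed to 2.21 to 2.57 against 3.59 to 4.06. Most of that difference lay in Actc1, at means of 0.681 and 1.88 CPM, while Tnnt2 stood at 0.319 and 0.263. Endothelial and blood markers summed to 230 to 237 CPM against 170 to 210, and the part of such cells in the difference was not tested. Rn45s took 1.43% and 1.06% of counts in the shSC Day 4 libraries and 0.376% and 0.228% in those of shCTSL, and its part was not tested either.

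Whether the change from Day 0 to Day 4 differed between the lines was tested as an interaction. It called 0 members, where 0.00644% of all genes were higher and 0% lower, and 2 members had an unadjusted p under 0.05, as did 6.71% of all genes. The median interaction was 0.27 over the members, against 0.15 over genes of like length. Cox6b2 gave 1.46 ± 0.42 (adjusted p = 0.62) and Atp5l 1.32 ± 0.58 (adjusted p = 0.739). Without both shCTSL Day 2 libraries, 7 members were called: Cox6b2, Cox6a1, Atp5k, Ndufb2, Ndufb7, Uqcr10 and Uqcrq. In that fit the interaction was called for 1.18% of all genes upwards and 0.493% downwards. The lower count of falling members in shCTSL is therefore not shown to differ from that in shSC in the fit with all 12 libraries.

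The line differences moved with transcript length. At Day 4 the Spearman correlation of exonic length with the line difference was −0.50 over the 80 members and −0.43 over 15068 other genes, and at Day 2 it was −0.51 and −0.48 (genes of the same libraries, given as a description). Members under 600 bases had a median difference of 0.42 at Day 4 (26 genes), those of 600 to 1200 bases 0.36 (33 genes) and those over 1200 bases 0.22 (21 genes). Other genes in these length classes had medians of 0.20, 0.23 and −0.04. Set against the median of other genes in 20 bins of length, 66 of the 80 members lay above it and 26 above the upper quartile. For the ratio of the 2 shCTSL Day 2 replicates the correlations were −0.46 and −0.63, with 74 of 80 members above the median of their bin and 53 above the upper quartile. With exonic length as an offset in the edgeR fit, the median line difference of the members at Day 4 was 0.14, and Cox6b2 alone was called (1.12, adjusted p = 0.0373). In that fit 0.129% of all tested genes were called higher and 0.103% lower. The part of RNA quality or library preparation in the line difference was not tested.

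**Figure D4:**
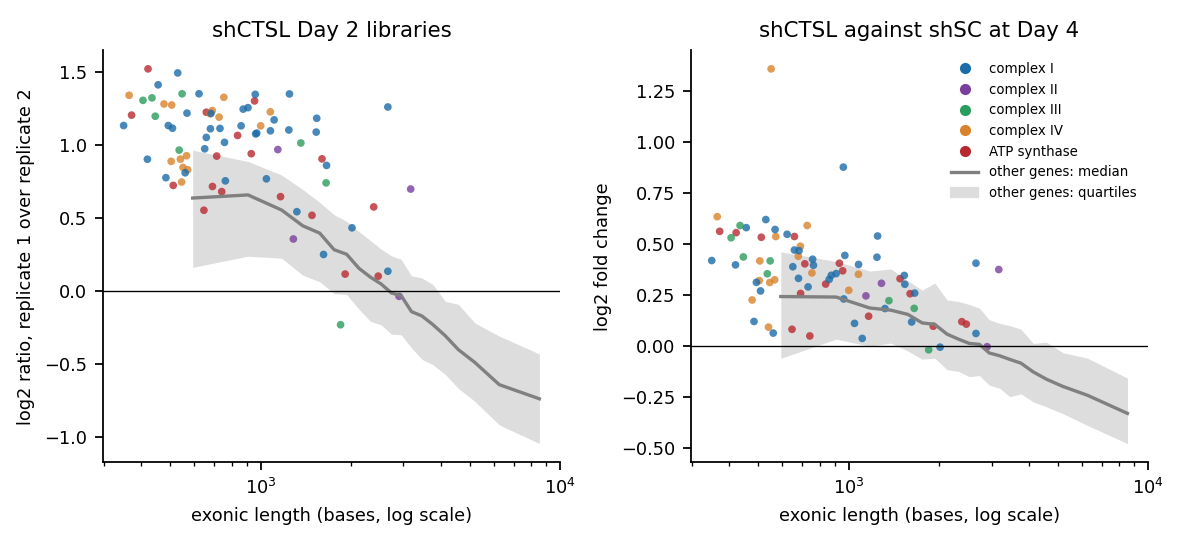
Points are the 80 tested members, coloured by complex, against exonic length in bases on a log axis, with the log2 ratio of shCTSL Day 2 replicate 1 to replicate 2 on the left and the log2 difference of shCTSL against shSC at Day 4 on the right. Grey lines and bands are the median and quartiles of other genes in 20 length bins; 74 members on the left and 66 on the right lie above the grey line.

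Other genes of mitochondrial energy metabolism are given by lists, beside the 28.7% of all tested genes that were lower and the 32.1% that were higher at Day 4 in shSC, and the 27.6% and 32.3% in shCTSL. Of 41 tested assembly factors and chaperones of the complexes, 18 fell at Day 4 in shSC and 0 rose, with a median of −0.53, and 19 fell in shCTSL. The lowest in shSC were Lyrm7, which matures the Rieske protein of complex III (−2.26 ± 0.32), and Ecsit, a complex I assembly factor (−1.75 ± 0.16). The smallest called falls were those of the complex I assembly factors Ndufaf3 (−0.65) and Ndufaf4 (−0.67). Of 7 subunits and carriers outside the symbol rule, 2 fell in shSC and in shCTSL, with a median of −0.32 in shSC that was 0.01 with library totals. They were Cyc1, cytochrome c1 (−1.12 ± 0.13), and Usmg5, a small protein of ATP synthase (−1.14 ± 0.35).

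Of 18 enzymes of pyruvate dehydrogenase and the citric acid cycle, 13 fell in shSC and 12 in shCTSL and 0 rose, with a median of −0.70 in shSC. Pdha1, the catalytic subunit of pyruvate dehydrogenase, fell by 1.70 ± 0.17 and Idh3a, of isocitrate dehydrogenase, by 1.67 ± 0.13. The smallest called falls were those of Idh3g (−0.65) and Sucla2 (−0.65). Mitochondrial ribosomal proteins, which make the mitochondrially encoded subunits, had 62 of 78 lower and 1 higher in shSC, with a median of −1.03, and 52 lower and 1 higher in shCTSL. Mrpl36 (−1.89 ± 0.22) and Mrps18b (−1.89 ± 0.17) were lowest, Mrps23 had the smallest called fall (−0.69 ± 0.20) and Mrps6 was higher (1.74 ± 0.27). With library totals 42 of the 78 were lower in shSC.

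Of 20 mitochondrial transcription factors and nuclear regulators of these genes, 11 were lower and 2 higher at Day 4 in shSC, and 12 lower and 3 higher in shCTSL. The lowest were Esrrb, a nuclear receptor that is also on the pluripotency list (−4.24 ± 0.23), and the coactivator Ppargc1b (−3.04 ± 0.27). Those higher in shSC were the coactivator Ppargc1a (4.65 ± 0.45) and Esrrg, a receptor of the same family as Esrrb. Ppargc1a stood at 0.0762 and 0.124 CPM at Day 0 and 2.83 and 2.64 at Day 4, and Esrrg at 0.0762 and 0 CPM at Day 0 and 4.42 and 6.31 at Day 4. Nrf1 changed by −0.55 ± 0.10, under 1.5-fold (adjusted p = 0.000654), Gabpa, the DNA-binding part of GABP, by −0.98 ± 0.15 (adjusted p = 0.000175) and Yy1 by 0.09 ± 0.10 (adjusted p = 0.45). Of the members with a promoter window, 12 of the 35 that fell at Day 4 in shSC held at least 1 of the 3 motifs, as did 7 of the 28 that were tested and not called.

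Of the 84 genes, 4 had too few counts to test. Cox6a2, Cox7b2 and Cox8b, known from muscle, testis and muscle, had 12, 56 and 2 counts over all 12 libraries. Ndufs5, an accessory subunit of complex I, had 0 counts in every library; 68.3% of its windows had a copy elsewhere in the genome, so no level is drawn from it. Cox8c, the third isoform of subunit 8, was tested on 82 counts in all and was at 0 in Day 4 replicate 1 of shSC and Day 4 replicate 2 of shCTSL, and no fold is given for it.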

How the data were processed

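Gene counts were deposited as 1 table of whole-number read counts per gene for 12 libraries. Per the submitters' processing notes and the study's methods, the authors checked reads with FastQC 0.11.2 and placed them on mm9 with STAR 2.3.0e. They then used SAMtools 0.1.19 to drop reads of mapping quality below 10 and mitochondrial ones, and counted RefSeq genes with featureCounts 1.6.2. Multi-copy transcripts can lose reads at the quality filter. The library kit marked strand, but no source used here says whether counting used it, so reads of overlapping antisense genes could be counted together.

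The deposited counts were tested with edgeR 4.0.16 (quasi-likelihood, TMM, filterByExpr with a minimum count of 10, 1 fit over 6 groups with 6 residual degrees of freedom) in R 4.3.3. Called means a Benjamini-Hochberg adjusted p under 0.05 and at least 1.5-fold. Levels are TMM-normalized CPM from the deposited counts. The script was tested on simulated counts. Genes of like length had an exonic length (from the GENCODE annotation of mm9) of 454 to 1856.6 bases, the members' central range. Of the 2372 also alike in level, 38 were cytosolic ribosomal proteins. Copies elsewhere were counted over 32-base windows. Promoters came from RefSeq GRCm38.p6 and were matched by symbol; no coordinate was converted.

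The named genes were the 2 highest per kilobase in each complex, all of complex II, the 5 highest and 5 lowest called members per time comparison, the 2 smallest p per line comparison, isoform pairs and members not tested; from each other list, the 2 highest and 2 lowest called. A member that the rule picks is not reported here. Other members were named after their values were seen, as examples. Members and lists were chosen with earlier results of these data known. Alternatives were RLE scaling, DESeq2 1.42.0, limma 3.58.1 voom with quality weights, exonic length offsets, other filters and cutoffs, a replicate block, leaving out libraries, and library totals with no TMM factors, the last chosen after seeing the data.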

Additional observations from a re-analysis of the deposited data

How the results depend on the processing

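Counts of called members (higher and lower together) are given for the settings that moved them by 1.5 times or more, or to or from 0. In shSC, the 33 members called at Day 2 against Day 0 became 9 with library totals and no TMM factors (chosen after seeing the data) and 5 at a log2 change of 1.5, and the 45 at Day 4 became 19 and 3, and 30 with length offsets. In shCTSL, the 19 at Day 2 became 8 in a fit to the libraries compared and 2 at a log2 change of 1.5, and the 30 at Day 4 became 12 with library totals and 1 at a log2 change of 1.5. Day 4 against Day 2 in shSC went from 3 to 5 with no filter, 8 in a fit to the libraries compared, 8 without both shCTSL Day 2 libraries, 5 with length offsets and 7 with voom. Day 4 against Day 2 in shCTSL went from 3 to 15, 0, 5 and 1 under no filter, the libraries compared, length offsets and voom, to 5 with DESeq2 and to 1 at a log2 change of 1.5. The line difference at Day 2 went from 0 to 1 with no filter and 1 with DESeq2. At Day 4 it went from 0 to 1 with no filter, 7 in the libraries compared, 6 without both shCTSL Day 2 libraries, 1 with length offsets, 3 with voom and 1 with DESeq2, and the interaction from 0 to 4 in the libraries compared, 7 without both Day 2 libraries and 1 with voom. In the libraries compared, 2.45% of all tested genes were higher in shCTSL at Day 4 and 2.38% lower. With voom these shares were 2.07% and 2.58%. For the interaction they were 0.749% and 0.239% in the libraries compared, and 0.567% and 0.270% with voom. For changes over time, shares of all genes called under these settings are not given here, so those counts are not read as results about the members. The causes of these moves were not tested.

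Leaving out 1 library at a time gave 19 to 38 and 28 to 54 members for Day 2 and Day 4 against Day 0 in shSC, 11 to 44 and 11 to 34 in shCTSL, 1 to 8 and 0 to 58 for Day 4 against Day 2 in shSC and shCTSL, 0 to 0, 0 to 63 and 0 to 6 for the lines at Day 0, 2 and 4, and 0 to 9 for the interaction. In shSC the fewest came without Day 0 replicate 2 (19 and 28), Day 2 replicate 1 (19), Day 2 replicate 2 (21) and Day 4 replicate 1 (28), and 1 was left for Day 4 against Day 2 without either Day 4 replicate. In shCTSL they came without Day 0 replicate 1 (11 for both comparisons), Day 4 replicate 1 (13) and replicate 2 (16), and 0 was left for Day 4 against Day 2 without Day 4 replicate 1 and 1 without either shSC Day 2 replicate. Each of these fits leaves 1 library in a group, so its counts are not read as a result about the members. The line calls over all tested genes moved as well. At Day 2 they were most numerous without replicate 2 of shCTSL Day 2. The members' median line difference ran from −0.05 to 0.94 at Day 2 and from 0.25 to 0.41 at Day 4. Their median interaction ran from 0.18 to 0.34.

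Single members turned sign as follows. Uqcrh at Day 4 in shSC was 0.12 with library totals and 0.12 with length offsets. Sdhb at Day 4 in shCTSL was 0.088 with library totals. Cox6b2 at Day 4 in shCTSL was 0.21 with library totals and ran from −0.44 to 0.20 when 1 library was left out, with 0.20 and 0.0033 in the fits lacking replicate 1 of Day 0 or of Day 4. None of these was called in the fit reported. Whether replicate numbers pair the samples is not given in the labels. Correlations of same-numbered deviations ran from −0.299 to 0.104, a description of 2 libraries per group that cannot settle it. With the replicate number as a block the counts were 31 and 43 in shSC and 17 and 27 in shCTSL for Day 2 and Day 4 against Day 0, and 3 and 2 for Day 4 against Day 2, with 0 for the lines and the interaction.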
